A study of Mus musculus with 661 samples.

Results

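The genes described here encode 3 parts of the lysosome: the cathepsins, which are its proteases, the LAMPs, which are the main glycoproteins of its membrane, and the subunits of the V-ATPase, the proton pump that acidifies it. They were chosen by symbol from the gene table of the series, as every cathepsin named by a single letter, *Lamp1* to *Lamp5*, and every gene whose symbol starts with *Atp6v0* or *Atp6v1*, without pseudogenes. The choice gave 44 of 45771 nuclear genes, of which 18 were cathepsins, 4 were LAMPs and 22 were V-ATPase genes. Of these, 35 had at least 100 counts over all cells (14 cathepsins, 2 LAMPs and 19 V-ATPase genes), 6 had fewer and 3 had none.

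The data are full-length RNA sequencing of 661 single stromal cells from the bone marrow of wild-type C57BL/6 mice, in a plate format derived from Smart-Seq2, made to compare the marrow niche of young and old animals. Cells came from several mice of each age, and the labels name no mouse. All cells of 1 age and population therefore count as 1 sample and no difference was tested. There were 336 young and 325 old cells in 6 sorted populations, all Ter119-/CD45-. The median cell had 425611 counts.

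The mesenchymal sorts were MSC-S (CD31-/Sca-1+/CD51+) from the endosteum with 59 young and 59 old cells, MSC-L (Sca-1-/CD51+/PDGFRα+/LepR+) from the central marrow with 53 and 58, OPr (Sca-1-/CD51+/PDGFRα-/LepR-) from the endosteum with 44 and 29, and mOPr (Sca-1-/CD51+/PDGFRα+/LepR-) from the endosteum with 26 and 26. The endothelial sorts were arteriolar cells, AEC (CD31+/Sca-1hi/CD105lo), from the endosteum with 84 and 82 cells, and sinusoidal cells, SEC (CD31+/Sca-1lo/CD105hi), from the central marrow with 70 and 71. Library numbers in the labels fall into 3 ranges, called library ranges 1, 2 and 3. All SEC lie in range 3, so SEC and AEC were compared within that range, where there were 47 AEC. The median number of nuclear counts per cell was lowest in SEC, at 314844 in young and 302201 in old cells, and highest in OPr, at 686077 and 775426.

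Marker genes matched the sorts by lineage. The 10 endothelial markers summed to 8824 CPM (the usual library-scaled counts, here over nuclear genes) or more in each endothelial group and to 121 CPM or less in each mesenchymal group, while the 5 SEC markers summed to 11597 CPM in young and 9481 CPM in old SEC against 766 and 319 CPM in AEC. *Lyve1*, in that list, was at 0.0912 CPM in young SEC and at 0 in old SEC. The 6 OPr markers were higher in young MSC-L (11374 CPM) than in young OPr (3480 CPM), and the sort names are kept. At least 7 of 15 blood cell markers, each at 10 CPM or more, were found in 10 cells, of which 8 were old OPr, 1 was an old MSC-L and 1 was an old SEC. The other cells had at most 4. No 2 cells had the same counts.

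Cathepsins are made as inactive precursors, sorted to the lysosome largely by the mannose 6-phosphate tag, and activated there by the low pH that the V-ATPase maintains. The pump couples ATP hydrolysis by its cytosolic V1 sector to proton movement through its membrane V0 sector, and several subunits exist in alternative forms for particular organs. In bone marrow the best known user of the system is the osteoclast, which secretes cathepsin K and acid onto bone, while sinusoidal endothelium is known for taking up and degrading material from the blood.

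Cathepsin transcripts summed to a higher level in sinusoidal endothelium than in any other sorted population, by way of *Ctsl*. Summed over the 18 cathepsins, the level was 11062 CPM in young and 9405 CPM in old SEC, or 1.11% and 0.940% of nuclear counts. In the other groups it lay between 2736 CPM, in old AEC, and 6017 CPM, in old MSC-S. Without *Ctsl* SEC did not stand apart, at 4994 CPM in young and 4504 CPM in old cells beside 4150 and 4901 CPM in MSC-S. The LAMP sum ranged from 877 CPM in old AEC to 1650 CPM in old MSC-S, with 1252 CPM in young and 1191 CPM in old SEC. The V-ATPase sum ranged from 842 CPM in young OPr to 1422 CPM in old OPr, where it was 1008 CPM without the 8 cells with blood markers. Old SEC came next, at 1189 CPM, and without such cells it was highest of the 12 groups, at 1172 CPM.

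Cathepsins differed among themselves in which population held them. On the TPM scale (counts divided by exon length and scaled to the same total in every group, over the 41908 genes with a length), the highest levels over all cells were those of *Ctsd* (1089 TPM), an aspartic protease, and of the cysteine proteases *Ctsb* (731), *Ctsz* (687), *Ctsl* (646) and *Ctsk* (450). *Ctsl* made up 40.5% of cathepsin TPM in young and 36.9% in old SEC, and 4.55 to 12.2% in the other 10 groups. *Ctsd* led in AEC, with 34.2% in young and 45.6% in old cells, and in OPr, with 33.6% and 31.9%. *Ctsz*, a carboxypeptidase, led in MSC-L with 24.8% and 33.4%. *Ctsk*, the collagen-degrading enzyme of osteoclasts, led in young MSC-S with 25.2%.

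*Ctsl*, an endopeptidase of broad specificity, was at 6068 CPM in young and 4901 CPM in old SEC. Its level was 697 and 299 CPM in young and old AEC, 751 and 541 CPM in MSC-L, 935 and 1116 CPM in MSC-S, 309 and 607 CPM in OPr, and 902 and 750 CPM in mOPr. The median young SEC had 5565 CPM and the lowest had 485 CPM, against medians from 78.8 to 719 CPM in the other young populations. Single cells overlapped all the same, since the highest young AEC reached 8589 CPM.

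*Ctsb*, which cleaves both within and from the end of proteins, was at 2530 CPM in young and 2348 CPM in old SEC, close to the 2471 CPM of old MSC-S. The other groups ran from 679 CPM in young OPr to 1783 CPM in young MSC-S. *Ctsd* was at 1543 CPM in young and 1231 CPM in old SEC and from 324 CPM, in old MSC-L, to 1017 CPM, in old OPr, elsewhere. In the 8 old OPr with blood markers *Ctsd* was at 2090 CPM, and in the other 21 at 658 CPM. SEC led for both endopeptidases among young cells. *Ctsz* had its lowest level of the 12 groups in young SEC, 194 CPM, and its highest in old OPr, 424 CPM, with 743 CPM in those 8 cells and 318 CPM in the other 21. Within range 3 it was not lower in SEC than in AEC, at a log2 ratio of 0.34.

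*Ctsk* was a mesenchymal transcript in these cells. Its level was 580 CPM in young and 503 CPM in old MSC-S, 390 and 147 CPM in OPr, 314 and 160 CPM in mOPr, and 147 and 117 CPM in MSC-L. Endothelium was low, at 5.08 and 7.74 CPM in AEC and 20.8 and 12.5 CPM in SEC. Of 6 osteoclast markers, 3 had counts in young MSC-S, summing to 56.4 CPM with 56.1 CPM from *Itgb3*, which endothelium expresses too, and in old MSC-S the sum was 75.8 CPM. *Acp5*, the acid phosphatase of osteoclasts, is not in that list and was at 43.9 and 104 CPM in young and old MSC-S and 81.4 and 0 CPM in mOPr, and its part in the result was not tested. The *Ctsk* level was carried by many cells, as 66.1% of young MSC-S were at 50 CPM or more (exact 95% interval 52.6 to 77.9%).

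Among the LAMPs, *Lamp1* made up between 76.7% and 86.0% of LAMP TPM in every population and age. Its level lay between 505 CPM, in old AEC, and 1032 CPM, in old MSC-S, with 746 CPM in young and 683 CPM in old SEC. *Lamp2*, which also serves as the receptor of chaperone-mediated autophagy, lay between 372 CPM in old AEC and 658 CPM in old MSC-L. *Lamp3*, a gene of dendritic cells, had 57 counts in all, at most 5 in a cell, and *Lamp5* had 2, while *Lamp4* was not in the gene table, in which *Cd68* is the symbol of that protein.

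V-ATPase transcripts were spread over many subunits. The 5 with the highest TPM over all cells were *Atp6v0d1* (168 TPM), which joins the sectors, *Atp6v0b* (159), a proteolipid of the proton ring, *Atp6v1f* (155) and *Atp6v1g1* (101), parts of the central and outer stalks, and *Atp6v0e* (97.9), a small membrane subunit. *Atp6v0d1* ranged from 60.6 CPM in young OPr to 229 CPM in old OPr, with 97.9 CPM in young and 98.4 CPM in old SEC. *Atp6v0b* lay between 66 CPM in old mOPr and 153 CPM in old OPr, where it was 341 CPM in the 8 cells with blood markers and 90.1 CPM in the other 21. *Atp6v0e* lay between 87.5 CPM in old AEC and 172 CPM in young mOPr. *Atp6v1f* ran from 35 CPM in young MSC-L to 73.6 CPM in old MSC-S. *Atp6v1g1* ran from 26.8 CPM in old AEC to 50.6 CPM in young mOPr. SEC stood at neither end for any of these 5.

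The alternative subunits *Atp6v1c2*, *Atp6v1g2* and *Atp6v0a4* were each higher in some groups than in the rest. *Atp6v1c2*, a form of the C subunit, was at 60.3 CPM in young and 29 CPM in old MSC-L and at 19.5 CPM or less in every other group. *Atp6v1g2*, the G subunit of brain, was at 19.6 and 24.6 CPM in MSC-L, at 12.3 and 11.0 CPM in SEC and at 3.64 CPM or less elsewhere. *Atp6v0a4*, the form of the a subunit used by kidney, was at 42.6 CPM in young and 34.1 CPM in old OPr, at 20.4 CPM in young MSC-S and at 4.94 CPM or less in the others. In old OPr 74.5% of its 729 counts lay in 1 cell. The kidney forms *Atp6v1b1* (70 counts over all cells, 55 of them in 1 cell) and *Atp6v1g3* (no count), and *Atp6v1e2* of testis (12 counts), were at or near 0, as were *Ctsj*, *Ctsm*, *Ctsq* and *Ctsr*, cathepsins of the rodent placenta, with 0, 5, 5 and 0 counts.

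**Figure D1:**
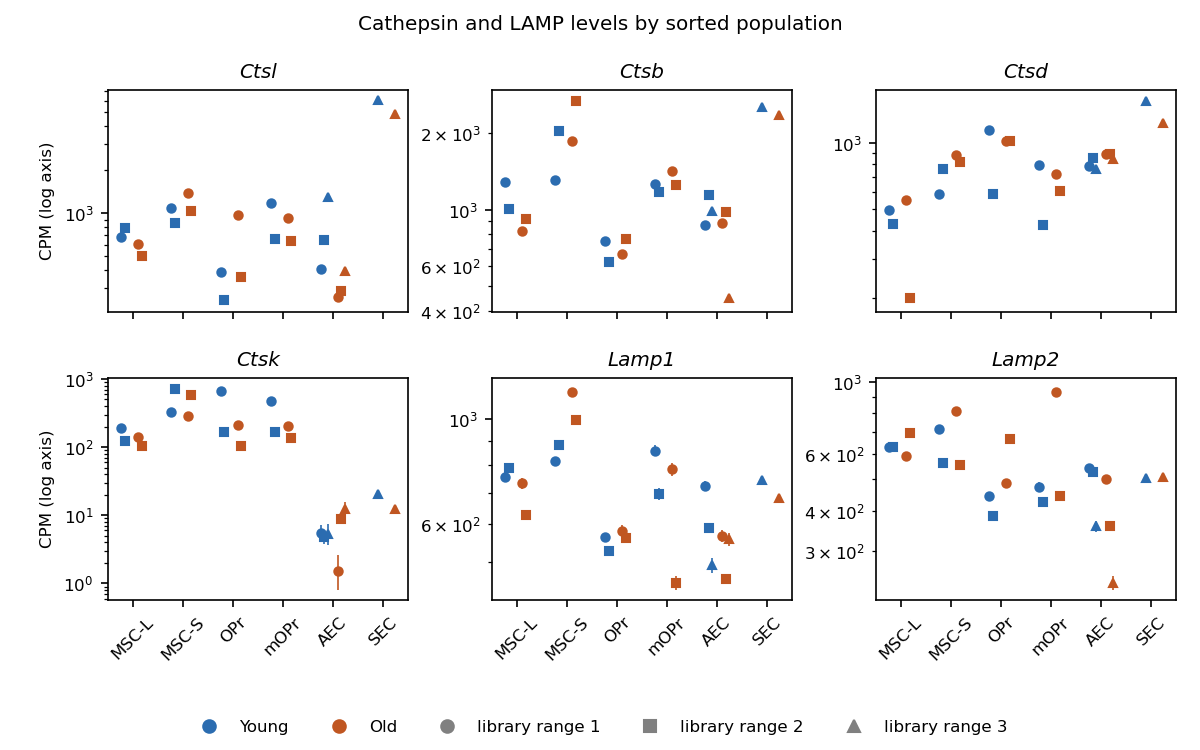
Level of 4 cathepsins and 2 LAMPs (y axes, CPM of summed counts, log scale, each panel with its own range) in the 6 sorted populations (x axes), with 1 point for each age and library range and exact 95% Poisson intervals as bars. *Ctsl* stood at 6068 CPM in young and 4901 CPM in old SEC, above all other points, while *Ctsk* was higher in all mesenchymal groups than in endothelium.

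Intervals on levels are exact 95% Poisson intervals of summed counts, and they cover counting error only, as the reads carry no molecular identifiers. Those on shares of cells take the cells of a group as independent and say nothing of the spread between mice. For the 12 members whose levels are given first above, the half-width ran from 0.538% of the value (*Ctsl* in young SEC) to 15.0% (*Ctsk* in young AEC).

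The ICGS clusters, which the authors built from guide genes and which are M1 to M16 for mesenchymal and E1 to E7 for endothelial cells, showed the same contrast for *Ctsl*. *Ctsl* is itself a guide gene of the endothelial clusters, so its level there describes them and is no independent result. It was at 6879 CPM in E7, the SEC-like cluster, 3361 CPM in E1, which the study names doublets, 1373 CPM in E6, 2038 CPM in M6, and 202 CPM in the AEC-like E3. *Ctsb* had its highest levels in M16 (3163 CPM) and E7 (2758 CPM). *Ctsd* was highest in the OPr-like M4 (1642 CPM) and in E7 (1623 CPM). *Ctsk* was highest in M16 (782 CPM), M9 (489 CPM) and M12 (446 CPM), all MSC-S-like.

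These subunits were also uneven between clusters. *Atp6v0a4* was at 141 CPM in M4, at 23.3 to 25.9 CPM in M5, M12 and M15, and at 3.91 CPM or less in the other clusters of at least 5 cells. In M4, 1 old OPr held 543 counts of *Atp6v0a4*. *Atp6v1c2* was at 39.5 CPM in M1 and 31.4 CPM in M2, the MSC-L-like clusters, at 29.5 CPM in E1 and at 1.21 CPM or less elsewhere. *Atp6v0d2*, the form of the d subunit used by osteoclasts, was at 16.5 CPM in M16, 10.8 CPM in M15 and 7.41 CPM in M12 and came from 10 cells in all. That gene was chosen after its values were seen, as were *Ctsh* and *Atp6v0a2* where they appear.

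In sinusoidal against arteriolar endothelium of library range 3, the comparison that asks how the 2 vessel types of the marrow differ, the cathepsins compared were higher in SEC, some of them by few counts, while most V-ATPase subunits were within 2-fold. Of 33 members that had 100 or more counts over both groups, spread over 5 or more cells, 12 were at least 2-fold higher in SEC, against 20.5% of all 14042 genes so filtered, and 0 were at least 2-fold lower, against 14.7% of genes. SEC had 141 cells and AEC 47, so that scarce genes reached the count minimum mostly through SEC, among members as among all genes. With both groups scaled to the smaller total before the minimum, a filter chosen after the data were seen, 8 of 29 members were higher, beside 17.9% of 12171 genes, and 5 of 11 cathepsins, whose median log2 ratio was 0.92. *Ctss*, *Ctse*, *Ctsw* and *Atp6v1c2* then fell out, and *Ctsg* was among the 5. Within range 3 the cathepsins *Ctsl*, *Ctsb*, *Ctsc*, *Ctsh*, *Ctss*, *Ctse*, *Ctsw* and *Ctsg* made up 8 of those 12, out of 14 cathepsins compared, and all 14 log2 ratios were above 0 within that range, at 0.04 or more. Against AEC of all ranges *Ctsz* (-0.57) and *Ctsh* (-0.30) were lower in SEC, and 11 members were at least 2-fold higher, for which no share of all genes is given. Between clusters E7 and E3 with E4 in range 3, *Ctsz* (-1.19), *Ctsk* (-0.80) and *Ctsg* (-0.42) were lower in E7. The remaining 4 were the V-ATPase subunits *Atp6v1g2*, *Atp6v1c2*, *Atp6v0a1* and *Atp6v0a2*, out of 17 compared, and neither of 2 LAMPs passed. Ratios are of CPM + 1 in summed counts, and their median on the log2 scale was 0.77 over members, 1.63 over cathepsins, 0.60 over LAMPs, 0.16 over V-ATPase genes and 0.10 over all genes.

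*Ctsl* was at 5501 CPM (5479 to 5523) in SEC and 847 CPM (831 to 863) in AEC of range 3, a log2 ratio of 2.70. The median SEC had 4988 CPM and the median AEC 361 CPM. The difference was present at both ages, with 6068 against 1294 CPM in young and 4901 against 394 CPM in old cells. In young AEC, 2 cells placed in cluster E7 held 3584 of 8368 *Ctsl* counts, at 6951 CPM, which is the level of young SEC in that cluster (6781 CPM).

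*Ctsb* was at 2442 CPM (2427 to 2457) in SEC and 720 CPM (706 to 735) in AEC, a log2 ratio of 1.76, with cell medians of 2127 and 318 CPM. *Ctsc*, the dipeptidyl peptidase that activates granule serine proteases, was at 106 CPM (103 to 109) in SEC and 15.7 CPM (13.6 to 18.1) in AEC, a log2 ratio of 2.68. It was at 50 CPM or more in 41.1% (exact interval 32.9 to 49.7%) of SEC and 4.26% (0.520 to 14.5%) of AEC. These shares were 40.7% and 4.35% with each cell thinned to 100000 counts. Against AEC of all ranges the log2 ratio of *Ctsc* was 1.10, and 1 young AEC of range 1 held 1711 of its 10968 counts.

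Several called cathepsins rested on few cells. *Ctss*, a protease of antigen-presenting cells, was at 4.50 CPM in SEC, from 7 cells, and had no count in AEC, so it was at least 19.3-fold higher with 3 counts over the group as the floor. *Ctse*, an aspartic protease, was at 6.40 CPM in 11 SEC and 0.545 CPM in 6 AEC, a log2 ratio of 2.26 that was -0.35 in young cells alone. Without the cells with blood markers it was at 3.48 CPM in SEC, a log2 ratio of 1.54. *Ctsw*, a cathepsin of cytotoxic lymphocytes, was at 4.27 CPM in SEC and had 2 counts in AEC, with 105 of its counts in 1 old SEC, a log2 ratio of 2.19, with an interval of 2.90 to 7.83 for the log2 ratio of CPM without the added 1.

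*Ctsg*, the serine protease of neutrophil granules, was at 45 CPM in SEC and 7.01 CPM in AEC, a log2 ratio of 2.52, but a single old SEC with 14 of 15 blood markers held 1711 of its 2010 counts. Without the cells with blood markers the log2 ratio was -0.43. Counts of *Ctsg* were found in 0 of 170 cells of range 1, 0 of 303 of range 2 and 146 of 188 of range 3, where the median cell with any count had 2. *Ctsh*, an aminopeptidase, was at 85.1 CPM in SEC and 29.3 CPM in AEC, with 95 against 0.309 CPM in young and 74.6 against 58.7 CPM in old cells. Its direction depended on the AEC used, as AEC of all ranges were at 105 CPM.

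The V-ATPase genes called were *Atp6v0a1* and *Atp6v0a2*, forms of the a subunit, which places the pump in particular compartments, and a pair of alternative V1 subunits. *Atp6v0a1* was at 158 CPM (154 to 162) in SEC and 36.9 CPM (33.7 to 40.4) in AEC, a log2 ratio of 2.07, and 57.4% (48.8 to 65.7%) of SEC against 21.3% (10.7 to 35.7%) of AEC were at 50 CPM or more. *Atp6v0a2* was at 116 CPM in SEC and 37.6 CPM in AEC (1.60), and against AEC of all ranges, at 71.3 CPM, its log2 ratio was 0.70 and no longer 2-fold. *Atp6v1g2* was at 11.7 CPM in 21 SEC and 0.623 CPM in 3 AEC, a log2 ratio of 2.96. *Atp6v1c2* was at 4.06 CPM in 8 SEC and had no count in AEC, at least 17.4-fold higher by the same floor, though between clusters E7 and E3 with E4 its log2 ratio was 0.87. E7, of any sort, held 1 count of *Atp6v1c2* in young and 25 in old cells. Among endothelial clusters its level was highest in E1, which the study names doublets, and the part of those cells was not tested.

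All other subunits compared were within 2-fold. *Atp6v1d* and *Atp6v1c1* were closest to equal, at log2 ratios of 0.03 and -0.05. *Atp6v0d1* was at 98.1 CPM in SEC and 109 CPM in AEC, and *Atp6v0e* at 101.5 and 90.4 CPM. *Atp6v0b* was at 115 and 81.4 CPM, *Atp6v1f* at 57.2 and 31.2 CPM, and *Atp6v1g1* at 34.3 and 19.6 CPM. *Lamp2* was at 507 CPM (500.4 to 514) in SEC and 299.7 CPM (290 to 309) in AEC, a log2 ratio of 0.76. *Lamp1* was at 715 and 525 CPM, a log2 ratio of 0.45, so both LAMPs were higher in SEC by less than 2-fold.

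**Figure D2:**
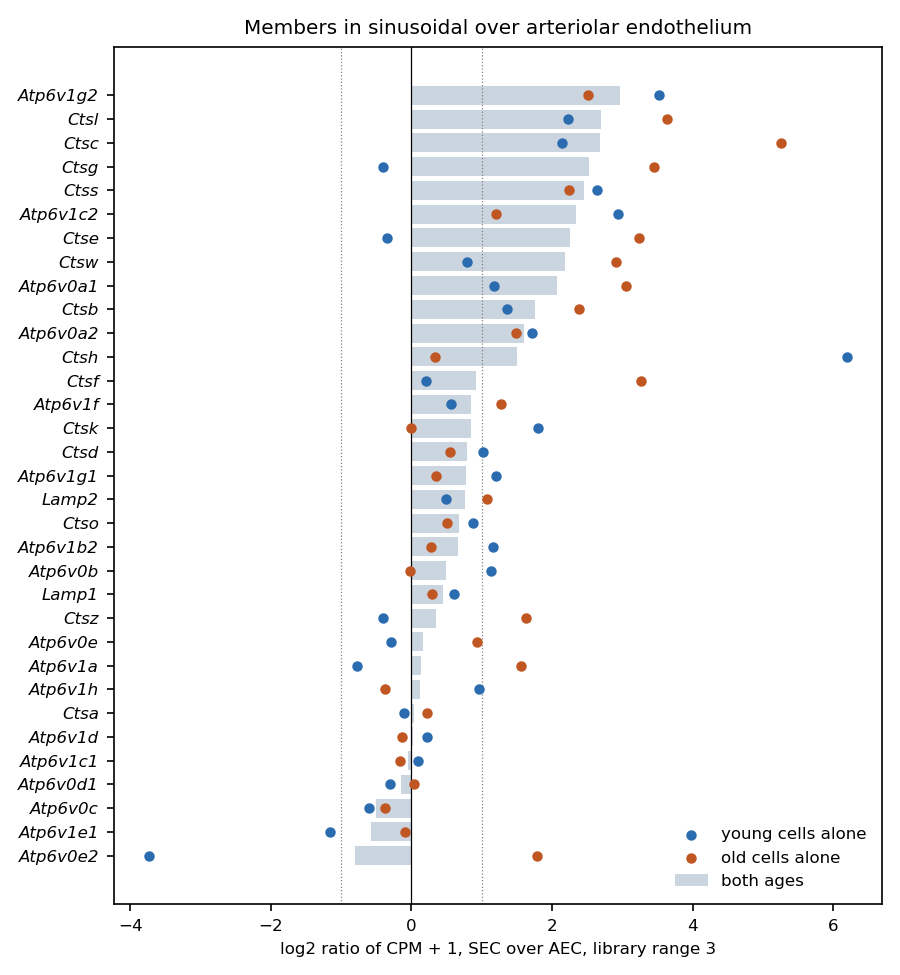
Log2 ratio of CPM + 1 in SEC over AEC (x axis) of the 33 members that passed the count minimum (y axis) in library range 3, with bars for both ages together, points for each age alone and dotted lines at 2-fold. In that range all 14 cathepsins lay above 0 for both ages together, though *Ctsg* was at -0.43 without the cells with blood markers and *Ctsz* and *Ctsh* below 0 against AEC of all ranges, and *Atp6v0e2* had the lowest bar, at -0.81.

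Blood cell markers summed to a higher level in old SEC than in young SEC. All 15 had counts in SEC, summing to 176 CPM in young and 467 CPM in old cells. In AEC of all ranges they summed to 104 and 52 CPM. *Lcp1* was the most abundant in young SEC, at 93.5 CPM, and was at 81.7 CPM in old SEC, where *Lyz2* led at 89.0 CPM. A single old SEC had 14 of the 15 markers. The 7 macrophage markers summed to 2.87 CPM in young and 10.4 CPM in old SEC, with 4 and 5 of them counted and *Adgre1* and *Marco* at 0 at both ages. The 6 MSC-L markers summed to 6749 and 4248 CPM in SEC and 3058 and 3496 CPM in AEC of all ranges, all 6 with counts and *Cxcl12* the most abundant. Leaving out the cells with blood markers gave 2.71 for *Ctsl*, and the part of the other markers in the result was not tested. AEC came from the endosteum and SEC from the central marrow, so vessel type and site cannot be told apart.

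Other lysosomal genes were compared in the same cells by list, and the medians of hydrolases, membrane proteins and sorting genes were nearly alike. Of 37 hydrolases and activators compared, 14 were at least 2-fold higher and 1 lower in SEC, where 20.5% and 14.7% of all genes were, with a median log2 ratio of 0.64. *Lgmn*, the asparaginyl endopeptidase that processes cathepsins, was at 955 CPM in SEC and 124 CPM in AEC, a log2 ratio of 2.94. Among the others, the log2 ratio was 4.72 for the phospholipase *Pla2g15*, 3.67 for the sulfatase *Galns*, 2.59 for the galactosylceramidase *Galc*, 2.08 for the acid glucosidase *Gaa* and 1.64 for the glucosaminidase *Naglu*. It was 1.44 for the fucosidase *Fuca1*, 1.34 for the folate hydrolase *Ggh*, 1.31 for the carboxypeptidase *Cpq*, 1.30 for *Hexa*, 1.22 for the phosphatase *Acp2*, 1.05 for the mannosidase *Man2b1* and 1.01 for the sialidase *Neu1*. Without the cells with blood markers *Man2b1* was at 0.90. The galactosidase *Gla* was lower, at -1.03. *Psap*, the saposin precursor and the most abundant of the list, was at 1935 and 1322 CPM, and *Scpep1* and *Ppt1* had log2 ratios of 0.62 and 0.24.

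Of 18 lysosomal membrane proteins compared, 5 were higher and 1 lower, where 20.5% and 14.7% of all genes were, with a median of 0.53. Their log2 ratios were 3.29 for the potassium channel *Tmem175*, 3.06 for *Laptm5*, which was at 1.00 CPM in young and 63.5 CPM in old SEC, 1.67 for *Scarb2*, which carries glucocerebrosidase, 1.46 for *Cd63*, which is also an endothelial guide gene, and 1.19 for the sialic acid exporter *Slc17a5*, and -2.70 for *Cd68*. *Slc17a5* was not higher against AEC of all ranges, at 37.1 CPM in young and 21.8 CPM in old SEC and 45.3 and 32.2 CPM in AEC, and neither was the hydrolase *Ggh* clearly so, at 43.6 and 53.1 CPM in SEC and 39.6 and 55.1 CPM in AEC. *Laptm4a*, *Laptm4b* and *Hgsnat* had 0.28, 0.85 and 0.19. Among 11 partners of the V-ATPase, 1 was higher (20.5% of all genes were), the assembly factor *Dmxl2* at 3.70, and the median was 0.27. *Tcirg1*, the a subunit of osteoclasts, whose symbol falls outside the rule, had 0.27, and the accessory subunits *Atp6ap1* and *Atp6ap2* had 0.37 and 0.10.

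Among 12 sorting genes, 2 were higher and 1 lower, where 20.5% and 14.7% of all genes were, with a median of 0.55. The adaptor *Gga3* (2.00) and *Gnptab* (1.85), which makes the mannose 6-phosphate tag, were higher, and the receptor *Igf2r* (-1.56) was lower. *M6pr*, *Gnptg* and *Vps26a* had 0.45, 0.64 and 0.53. None of 3 MiT/TFE factors, regulators of lysosomal genes, differed by 2-fold within range 3, with a median of 0.05, where *Tfe3* had 0.05, *Tfeb* -0.41 and *Tfec* 0.91. Against AEC of all ranges *Tfec* had 2.31, at 24.7 and 4.19 CPM. Of 3 cathepsin inhibitors, *Cstb* was higher at 1.62. The median, 0.39, was that of *Cst7*, which was at -2.02 without the cells with blood markers, and *Cst3*, the main secreted inhibitor, was at 570 CPM in SEC and 869 CPM in AEC. Against AEC of all ranges, 14 of the 23 list genes called higher were still at least 2-fold higher, and 1 of the 3 called lower was still lower. Those that were not were *Scarb2* (0.58), *Slc17a5* (-0.37), *Hexa* (0.73), *Man2b1* (0.63), *Fuca1* (0.82), *Ggh* (0.03), *Gga3* (0.99), *Gnptab* (0.55), *Cstb* (0.44), *Gla* (-0.95) and *Igf2r* (-0.75). *Dmxl2* fell to 1.27, *Tmem175* to 1.03, *Pla2g15* to 1.90 and *Galns* to 2.50, and the lower *Cd68* was at -1.25. Some rose, among them *Laptm5* to 4.03 and *Neu1* to 2.00. A further 7 list genes were at least 2-fold higher only against AEC of all ranges: *Tfec*, *Cst7* (2.00), *Laptm4b* (1.29), *Gga2* (1.25), *Ostm1* (1.04), *Idua* (1.02) and *Gm2a* (1.01). There were 4 lower only there: *Cst3* (-1.38), *Ncoa7* (-1.30), *Mitf* (-1.16), which had too few counts within range 3, and *Lipa* (-1.08). These 11 were chosen after their values were seen, and no share of all genes is given for that comparison.

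Among mesenchymal cells, central marrow MSC-L and endosteal MSC-S of young mice differed in single members. Of 30 members compared, 4 were at least 2-fold higher in MSC-L (28.8% of all 13645 genes were) and 5 at least 2-fold lower (16.8% of genes). The median log2 ratio was -0.20 over members and 0.32 over all genes, and size factors by median of ratios shifted every ratio by -0.35. MSC-L had more of the alternative subunits *Atp6v1c2* and *Atp6v1g2* and of the proteases *Ctso* and *Ctsc*, and less of *Ctsk*, *Ctsh*, *Atp6v0a4*, *Atp6v1e1* and *Atp6v1c1*.

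*Atp6v1c2* was at 60.3 CPM in young MSC-L and had 1 count in young MSC-S, a log2 ratio of 5.90, with an interval of 8.54 to 16.33 for the log2 ratio of CPM without the added 1. *Atp6v1g2* was at 19.6 CPM in MSC-L with 3 counts in MSC-S, a log2 ratio of 4.25 and an interval of 6.27 to 10.10 on the same log2 scale. Both genes were thus nearly confined to MSC-L within this pair. *Ctsk* was at 147 and 580 CPM, a log2 ratio of -1.97 that was -0.78 in range 1 and -2.54 in range 2. *Ctsh* was at 80.4 and 206 CPM (-1.35), and *Ctso*, a cysteine protease of wide distribution, at 189 and 72.4 CPM (1.38). *Ctsc* was at 19.2 and 7.58 CPM, a log2 ratio of 1.24 that was -4.33 in old cells.

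Of the subunits lower in MSC-L, *Atp6v1e1*, a peripheral stalk subunit, was at 61.3 and 138 CPM (-1.16). *Atp6v1c1*, the common C subunit, was at 33.1 and 68.9 CPM (-1.03) and thus moved opposite to its alternative form. The log2 ratio of *Atp6v1c1* ran from -1.83 to -0.36 over the alternatives. *Atp6v0a4* was at 3.73 and 20.4 CPM, a log2 ratio of -2.18 that was 0.34 in old cells. *Atp6v0e2*, an alternative e subunit, was at 25.2 and 48.4 CPM (-0.92), with -6.80 in range 1 and 1.36 in range 2. *Ctsl*, *Ctsb*, *Ctsd*, *Lamp1* and *Lamp2* differed by less than 2-fold, at -0.32, -0.69, -0.62, -0.14 and 0.04.

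In the other lysosomal lists, 7 of 38 hydrolases and activators were higher in young MSC-L (28.8% of genes) and 6 lower (16.8%), among them *Pla2g15* (2.76), *Galns* (2.40) and *Hexa* (-1.11). In old cells *Pla2g15* was at 26.8 CPM in MSC-L and 38.7 CPM in MSC-S, *Galns* at 0.103 and 19.8 CPM, and *Hexa* at 169 and 341 CPM. The counts were 3 higher and 1 lower of 17 membrane proteins, 3 and 0 of 12 pump partners, 2 and 0 of 12 sorting genes, 0 and 1 of 3 MiT/TFE factors (*Mitf*, -4.17) and 0 and 0 of 2 inhibitors.

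With age, the members showed no common direction across the populations. Their median lay below that of all genes in MSC-L, mOPr, AEC and SEC and above it in MSC-S and OPr. The median log2 ratio of old over young was -0.25 in MSC-L, 0.04 in MSC-S, 0.34 in OPr, -0.20 in mOPr, -0.15 in AEC and -0.11 in SEC, where all genes had 0.01, -0.06, 0.14, 0.11, -0.03 and 0.05. Between 28 and 32 members were compared in each population. Size factors by median of ratios shifted all ratios by -0.16 in OPr, -0.17 in mOPr and 0.11 in MSC-S, and by 0.10 or less in size in the others. Except where a sentence says otherwise, members named below were called at 2-fold and had the same direction in each library range that held 5 or more cells per age.

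In MSC-L, 1 member was at least 2-fold higher in old cells (13.9% of genes were) and 4 lower (11.5% of genes), and 2 of these 5 had the same direction in both ranges. *Ctsc* was at 19.2 CPM in young and had 3 counts in old cells, a log2 ratio of -4.13, with an interval of -9.25 to -5.41 for the log2 ratio of CPM without the added 1. Within the MSC-L-like clusters, of any sort, it was at 19.4 CPM in young and 7.44 CPM in old cells (-1.27). Old cells of those clusters had 262 counts, beside the 3 of sorted old MSC-L. *Ctsf*, a cysteine protease, was at 205 CPM in young and 86.0 CPM in old cells (-1.24), with 187 and 33 CPM in range 1 and 214 and 115 CPM in range 2. Within the MSC-L-like clusters, of any sort, it was at 203 and 156 CPM (-0.38), less than 2-fold. Those clusters held 80 old cells, while the old MSC-L sort held 58. Both were cathepsins and both were lower in old cells. *Ctse*, called but not alike in both ranges, was at 0.175 and 83.4 CPM and had 1618 of its counts in 1 old cell and no count in range 1.

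In MSC-S, 1 member was higher (8.65% of genes) and 1 lower (11.1% of genes), and *Atp6v0a4* kept its direction in both ranges. It was at 20.4 CPM in young and 0.766 CPM in old cells, a log2 ratio of -3.60. The abundant members were not called here: *Ctsb* was at 1783 and 2471 CPM, *Ctsl* at 935 and 1116 CPM and *Lamp1* at 858 and 1032 CPM.

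In OPr, 6 members were higher in old cells (25.6% of genes) and 2 lower (19.6% of genes), and 7 of the 8 had the same direction in both ranges. Old OPr held the 8 cells with blood markers, and without them 5 of these 7 differed by less than 2-fold and *Ctss* turned its direction. *Atp6v0d1* was at 60.6 CPM in young and 229 CPM in old OPr (1.90, and 0.65 without those cells), and its level was 627 CPM in the 8 cells and 95.4 CPM in the other 21 old OPr. *Atp6v1d*, of the central stalk, was at 34.6 and 127 CPM (1.85, and 0.49 without). *Atp6v1b2*, the B subunit of the catalytic head, was at 45.3 and 154 CPM (1.74, and 0.56 without). *Atp6v0a1* was at 30.3 and 87.5 CPM (1.497, and 0.82 without). All 4 ratios were smaller without the cells with blood markers, and *Atp6v0e2*, called lower, did not keep its direction in both ranges.

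*Ctsc* had 1 count in young OPr and was at 57.3 CPM in old OPr, a log2 ratio of 5.82 with an interval of 8.23 to 16.02 for the log2 ratio of CPM without the added 1, and 3.22 without the 8 cells. In the other 21 old OPr, 81.2% of its 138 counts lay in 1 cell. *Ctss* was at 4.36 and 65.3 CPM (3.63), with 1212 of its 1731 counts in 1 old OPr with 14 blood markers, and -2.34 without the 8 cells. *Ctsk* was at 390 and 147 CPM (-1.40, and -0.99 without), with 677 and 211 CPM in range 1 and 169 and 104 CPM in range 2. *Ctsk* was nearly absent from the 8 cells, at 0.560 CPM, as was *Lamp1* low there, at 94.8 CPM against 728 CPM in the other old OPr, while *Ctsd* was at 2090 against 658 CPM.

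In old OPr all 15 blood markers had counts, summing to 4899 CPM against 25.3 CPM in young OPr, with *Lyz2* at 938 CPM. Of 6 neutrophil markers 5 had counts, summing to 7491 CPM with *S100a9* at 4041 CPM and *Ltf* at 0. Of 6 osteoclast markers 3 had counts, summing to 813 CPM with *Mmp9* at 770 CPM and *Ocstamp*, *Dcstamp* and *Oscar* at 0. The 6 MSC-L markers, all with counts, summed to 22695 CPM in old and 5589 CPM in young OPr, with *Cxcl12* at 19709 CPM, and their part in the result was not tested. More of the old than of the young OPr lay in the MSC-L-like clusters M1 and M2. Within the OPr-like clusters M3 to M5, of any sort, the log2 ratio was 2.13 for *Atp6v0d1* and 1.54 for *Atp6v1d*. It was 1.15 for *Atp6v1b2*, 1.11 for *Atp6v0a1*, 3.26 for *Ctsc*, 3.78 for *Ctss* and -1.92 for *Ctsk*, and M5 held cells with blood markers.

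In mOPr, 4 members were higher in old cells (24.7% of genes) and 3 lower (19.8% of genes), and 6 of the 7, all of the V-ATPase, had the same direction in both ranges. *Atp6v1c2* was at 0.617 CPM in young and 19.5 CPM in old mOPr (3.66). In range 1 it had no count in young cells and was at least 109-fold higher in old cells, and in range 2 its log2 ratio was 0.67. *Atp6v0d1* was at 78.6 and 168 CPM (1.09) and *Atp6v1b2* at 52.6 and 121.5 CPM (1.19), with 0.13 and 0.14 in range 1. Without the top cell of each age these 2 genes were at 0.83 and 0.79. Lower in old cells were *Atp6v1c1*, at 31.3 and 5.21 CPM (-2.38), *Atp6v0a2*, at 61.4 and 25.8 CPM (-1.22), and *Atp6v0c*, the main proteolipid of the proton ring, at 31.3 and 14.7 CPM (-1.04). Over the alternatives *Atp6v0a2* ran from -1.56 to -0.52, and *Atp6v0c* was at -0.99 without the top cell of each age. Outside clusters M1 and M2, with 12 old and 24 young cells, a selection made after the data were seen, *Atp6v1b2* was lower in old cells, at 2.20 against 43.6 CPM (-3.80). *Atp6v1c2* had too few counts there to be compared, with 0 in old and 6 in young cells. The log2 ratio there was 1.66 for *Atp6v0d1*, -4.83 for *Atp6v1c1*, -1.08 for *Atp6v0a2* and -1.02 for *Atp6v0c*. Members not called in the whole sort were at least 2-fold lower there too. They were *Ctsf* (-1.83), *Ctsk* (-1.83), *Ctsh* (-1.20), *Ctsa* (-1.18), *Atp6v0a1* (-3.33), *Atp6v0e* (-1.70), *Atp6v1g1* (-1.04) and *Atp6v0b* (44.5 against 128 CPM). Higher by at least 2-fold were *Atp6v1h* (1.51) and *Atp6v0e2* (1.40). These members were named after their values were seen, and no share of all genes is given. The 6 MSC-L markers summed to 998 CPM in young and 21133 CPM in old mOPr, all 6 with counts and *Cxcl12* at 18595 CPM in old cells, and their part in the result was not tested.

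In AEC, 1 member was higher in old cells (9.33% of genes) and 2 lower (11.7% of genes), and all 3 had the same direction in the 3 ranges. *Ctsl* was at 697 CPM in young and 299 CPM in old AEC (-1.22). In young and old cells it was at 404 and 261 CPM in range 1, 647 and 286 CPM in range 2, and 1294 and 394 CPM in range 3. *Ctsl* was thus lower in old AEC in each range, and within the AEC-like clusters E3 and E4, of any sort, it was at 434 and 264 CPM (-0.72). *Ctsc* was at 70.9 and 26.9 CPM (-1.37, and -0.73 without the top cell of each age). *Atp6v1g2* was at 0.172 and 3.64 CPM (1.99, and from 0.86 to 3.78 over the alternatives). SEC markers summed to 766 CPM in young and 319 CPM in old AEC, all 5 with counts, with *Stab1* the most abundant in young (339 CPM) and *Flt4* in old AEC (186 CPM), and their part in the result was not tested.

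In SEC, 3 members were higher in old cells (13.1% of genes) and 1 lower (7.56% of genes), all of them scarce. *Ctse* was at 0.274 CPM in young and 12.9 CPM in old SEC (3.45, and 2.64 without the cells with blood markers), *Ctsw* at 1.00 and 7.72 CPM (2.12, with 105 of its counts in 1 old cell), and *Ctsg* at 5.02 and 87.3 CPM (3.88, and -0.03 without the cells with blood markers). *Atp6v1c2* was at 6.66 and 1.30 CPM (-1.73), and within E7, of any sort, its log2 ratio was 1.48, from 1 count in young and 25 in old cells. Its level among endothelial clusters was highest in E1, which the study names doublets, and the part of those cells was not tested.

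*Ctsl* was at 6068 CPM in young and 4901 CPM in old SEC, with cells from 485 to 15046 CPM in young and from 0 to 13779 CPM in old SEC. Cluster membership differed between the ages, since 59 of 70 young and 44 of 71 old SEC were in E7. Inside E7 the level was 6781 CPM in young and 7013 CPM in old SEC, and it was 163 CPM in the 6 old SEC of E4 and 1251 CPM in the 12 of E6. *Ctsl* helped define E7 as a guide gene, so its level inside that cluster is no independent result on age. The 7 AEC markers, all with counts, summed to 384 CPM in young and 1550 CPM in old SEC with *Ly6a* at 528 CPM, and their part in the result was not tested.

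Among the other lysosomal lists, hydrolases and activators at least 2-fold higher and lower in old cells numbered 3 and 3 of 37 in MSC-L (13.9% and 11.5% of genes), 4 and 0 of 38 in MSC-S (8.65% and 11.1%), 9 and 6 of 38 in OPr (25.6% and 19.6%), 4 and 8 of 36 in mOPr (24.7% and 19.8%), 0 and 5 of 37 in AEC (9.33% and 11.7%) and 3 and 1 of 37 in SEC (13.1% and 7.56%). *Lgmn* was lower in old AEC, at 168 and 71.8 CPM (-1.22), the same log2 ratio as that of *Ctsl*, and *Fuca1*, at 128 and 62.5 CPM (-1.02), was lower too. Membrane proteins numbered 9 and 1 of 19 in OPr, where 25.6% and 19.6% of genes were, with *Laptm5* at 0.273 and 563 CPM (8.79, and 0.24 without the 8 cells with blood markers). *Cd68* (2.66) was at -2.58 without those cells, and *Hgsnat* (1.37) was at 0.66. The rest of those called higher stayed at least 2-fold higher without those cells, each with a larger log2 ratio. They were *Ctns* (1.37 without those cells), *Clcn7* (1.33), *Tmem192* (3.24), *Tmem175* (1.61), *Mfsd8* (3.89) and *Cln3* (1.499). Of the OPr kept, more of the old than of the young lay in the MSC-L-like clusters M1 and M2, and their part in these ratios was not tested. Pump partners numbered 4 and 2 of 11 in mOPr, where 24.7% and 19.8% of genes were, with *Tcirg1* at 41.1 and 186 CPM (2.15). *Tcirg1* was at 117 and 153 CPM in young and old MSC-L. More of the old than of the young mOPr lay in the MSC-L-like clusters M1 and M2, and their part in the result was not tested.

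**Figure D3:**
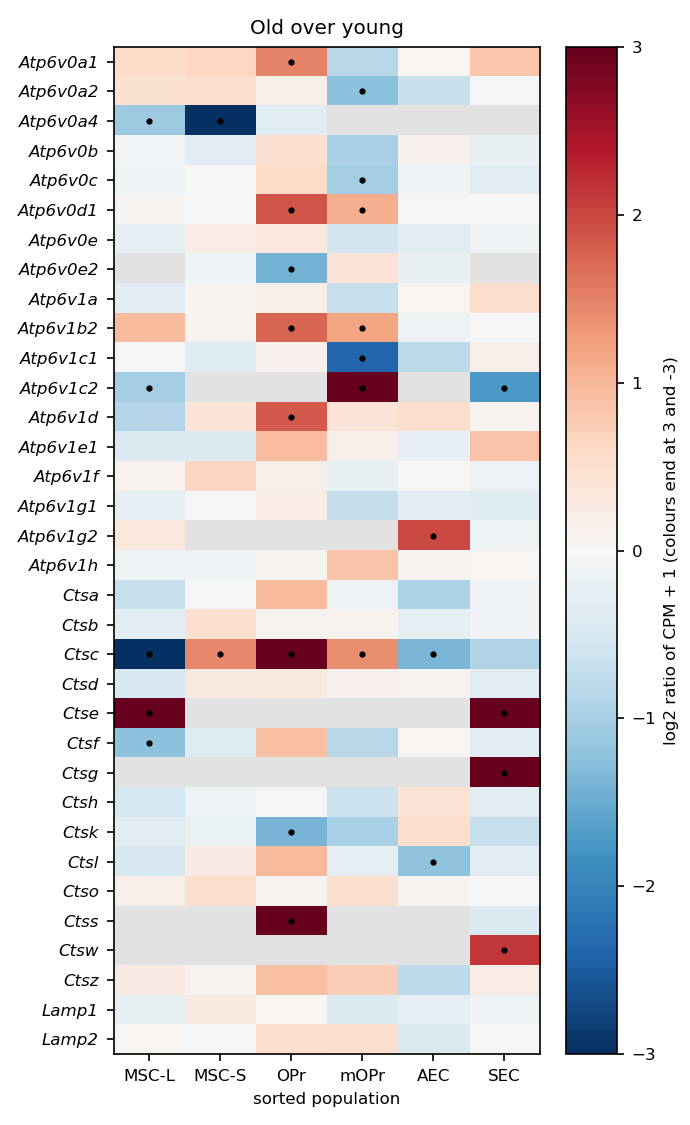
Log2 ratio of CPM + 1 in old over young cells (colour, ending at 3 and -3) of members (y axis) in the 6 sorted populations (x axis), with grey where a member had too few counts and a dot where it differed by at least 2-fold. Red and blue members occurred in every population, and *Ctsc* was called in 5 of 6, higher in MSC-S, OPr and mOPr and lower in MSC-L and AEC.

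Many lysosomal genes carry in their promoters an E-box, the letters CACGTG, in the longer form TCACGTGA known as the CLEAR motif, which TFEB and its relatives recognise. Both words read the same on the 2 strands, and each TCACGTGA also holds a CACGTG. Promoters from RefSeq (GRCm38.p6), 250 bases before to 50 after the gene start, were available for 34 of the 44 members, and not for *Atp6v0a2*, *Atp6v0d2*, *Atp6v1b2*, *Atp6v1c1*, *Atp6v1g1*, *Atp6v1h*, *Ctsb*, *Ctse*, *Ctsh* and *Ctsw*. CACGTG was in a promoter of 9 of 34 members (26.5%) and of 8.09% of 27025 genes, and TCACGTGA of 5 members (14.7%) and of 1.12% of genes. Of the other lists, CACGTG was found for 5 of 9 sorting genes (55.6%), 7 of 29 hydrolases and activators (24.1%), 4 of 17 membrane proteins (23.5%), 2 of 9 pump partners (22.2%), 0 of 4 MiT/TFE factors and 0 of 8 inhibitors. The members with TCACGTGA span proteases and both sectors of the pump, and they are shown to let the flanks be compared, 5′ to 3′ on the gene's strand with the motif in capitals, at chr2:164833749-164833778 (+) for *Ctsa*, chr7:142387908-142387937 (-) for *Ctsd*, chr8:105566050-105566079 (-) for *Atp6v0d1*, chr16:44139373-44139402 (-) for *Atp6v1a* and chr17:26676387-26676416 (+) for *Atp6v0e*.
Ctsa: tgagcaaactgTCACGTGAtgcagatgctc
Ctsd: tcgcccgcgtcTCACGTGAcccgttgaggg
Atp6v0d1: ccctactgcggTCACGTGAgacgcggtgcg
Atp6v1a: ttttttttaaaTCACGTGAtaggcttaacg
Atp6v0e: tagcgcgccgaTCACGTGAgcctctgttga

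*Ctsl*, the member with the largest level in SEC, had a single CACGTG, at chr13:64370739-64370768 (-), and *Lamp1*, whose level ran from 505 to 1032 CPM, had 4 within 70 bases, at chr8:13159091-13159160 (+). These windows are shown to set the member highest in SEC beside one with a narrower range of levels, with CACGTG in capitals. The words are a description of the sequence, and no binding was measured.
Ctsl: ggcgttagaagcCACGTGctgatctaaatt
Lamp1: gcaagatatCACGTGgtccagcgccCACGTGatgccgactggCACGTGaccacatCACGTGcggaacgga

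Reads were counted without strand, and some members share exon bases with a neighbour, so that their counts may hold reads of it: *Ctsl* shares 1742 of 6489 exon bases with an antisense transcript that is not in the gene table, *Ctsd* 808 of 2351 with *Gm49369*, not in the table either, and *Ctsb* 774 of 6051 with *Fdft1*, which had 5467 counts against 440595 of *Ctsb*. *Atp6v1c2* shares 50 of 2174 with *Pdia6*, which had 83987 counts. *Ctsa* shares 495 of 4715 with *Pltp* (56027 against 71818 counts of *Ctsa*), *Atp6v0a4* 259 of 4973 with *D630045J12Rik*, which had more counts than its own 2900, and *Atp6v1g2* 144 of 2510 with *Nfkbil1* (2491 against 1596).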

How the data were processed

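Single cells were sorted and sequenced by the authors, who mapped reads to GRCm38.p4 with GSNAP 2015-09-29 and deposited unnormalized counts per gene from HTSeq, run with the strand ignored. Of 46078 entries, 270 that repeated a symbol were summed with it. Age, sort and cluster came from the labels.

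Counts were summed within each group and divided by the group total of the 45771 nuclear genes to give CPM. TPM were computed with union exon lengths, which covered 91.5% of counts. A member was compared with at least 100 counts over both groups in at least 5 cells, on log2 of CPM + 1, and called at 2-fold. No test was made, since the mouse of a cell is not known. Intervals were exact Poisson, conditional binomial for ratios and Clopper-Pearson for shares, at 95%. A group without any count was given a floor of 3 counts for its lowest possible fold.

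Genes named were the 5 of each class with the highest TPM, the 10 members with the largest log2 ratio in SEC over AEC and in young MSC-L over young MSC-S, members called with age in the same direction in every library range, and of the other lists genes called in SEC over AEC, not all of which are printed, with up to 3 more of the highest TPM. The members and lists were chosen with earlier results of these data known. Cells with at least 7 of 15 blood markers, or 7 of 10 markers of the other lineage, at 10 CPM or more, were left out in alternatives. Other alternatives were median-of-ratios size factors, thinning to 100000 counts, averaging the CPM of single cells, a pseudocount of 0.1, no filter, each range or age alone, the ICGS clusters, AEC of all ranges, and leaving out the top cell of each gene. A count minimum at matched totals and mOPr outside clusters M1 and M2 were added after the data were seen. The steps were tested on simulated data. Software was matplotlib 3.10.9 for figures, scipy 1.17.1 for intervals and pandas 2.3.3 with numpy 2.4.6 for tables, under Python 3.11.15.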

Additional observations from a re-analysis of the deposited data

Results flagged for a closer look

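Old cells differed from young ones in opposite directions between populations for 2 members. The log2 ratio of *Atp6v1c2* was 3.66 in mOPr and -1.73 in SEC, where there is a single library range. Outside the MSC-L-like clusters M1 and M2, mOPr had 0 counts of it in old and 6 in young cells. Within cluster E7 its log2 ratio was 1.48, from 1 count in young and 25 in old cells. Among endothelial clusters its level was highest in E1, which the study names doublets. The part of these clusters in the 2 ratios was not tested. The log2 ratio of *Ctsc* was 5.82 in OPr (3.22 without cells with blood markers), -4.13 in MSC-L and -1.37 in AEC (-0.73 without the top cells). In cells of any sort within the MSC-L-like clusters it was -1.27. These differences between populations were not tested.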

How the results depend on the processing

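Over 12 results that answer a comparison, 132 of 140 alternative values stayed, 8 moved and 0 reversed. Of the 140, 4 were chosen after the data were seen: the median in mOPr outside clusters M1 and M2 (-0.67), and 3 values of SEC over AEC with the count minimum at matched totals (a median of 0.68, 8 higher and 0 lower). A median stayed if it lay inside the order-statistic interval of the reported median over members, and a number of genes if it was within 1.5-fold. That interval takes members as independent and says nothing of the spread between mice. How many values stayed depends on these limits. A reversal was counted only for a reported value of 1 or more in size. All medians were smaller and counts have no sign, so the 0 reversals followed from this rule. The median with age in SEC (-0.11) changed sign to 0.03 within E7. The median of members in SEC over AEC (0.77) was 0.32 with AEC of all ranges, and the count of members lower (0) was 1 in young cells alone and 1 between clusters E7 and E3 with E4. The median in MSC-L over MSC-S (-0.20) was -0.55 with median-of-ratios size factors and -0.57 in old cells, where 8 members were lower in place of 5. In range 1 alone, the median with age was 0.28 in MSC-S (0.04) and -0.74 in mOPr (-0.20). Members higher in SEC numbered from 8 to 15 over the alternatives.

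For 46 results on named genes, 3 of them named after their values were seen, 267 alternative values lay inside the counting interval of the log2 ratio of CPM + 1, 242 moved and 13 reversed. *Ctsg* in SEC over AEC was -0.43 without cells with blood markers, -0.38 without the top cell, -0.40 in young cells and -0.42 between clusters, and with age in SEC -0.0321 without cells with blood markers. *Ctse* in SEC over AEC was -0.35 in young cells, and *Ctsh* -0.30 with AEC of all ranges. With age in mOPr outside clusters M1 and M2, *Atp6v1b2* was -3.80 and *Atp6v1c2* -0.52. The latter had too few counts there to be compared but is among the 13. *Ctse* in MSC-L had no value in range 1. In old cells, MSC-L over MSC-S was 0.34 for *Atp6v0a4* and -4.33 for *Ctsc*. With age, *Ctss* in OPr was -2.34 without cells with blood markers and *Atp6v1c2* in SEC was 1.48 within E7. The cause was not tested. No paired analysis was possible because the labels name no mouse. Depth limits scarce members, as 3 counts correspond to 0.145 CPM in old SEC.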
